A study of Homo sapiens with 2 samples.

Results

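The 10 enzymes described here make serine from a glycolytic intermediate and pass its carbon into the folate cycle: PHGDH, PSAT1, PSPH, SHMT1, MTHFD1, SHMT2, MTHFD2, MTHFD2L, MTHFD1L and ALDH1L2. They were taken by gene symbol from a deposited table of 46427 gene rows, and all 10 were found. Messenger RNA was sequenced from cells that carry the label MIA PaCa-2, a human pancreatic adenocarcinoma line, kept for 48 hours in vehicle (1 library) or in iMQT_020 (1 library). By its labels, iMQT_020 inhibits the mitochondrial glutamine transporter; no dose is given, both groups share the same line and no genetic change is named. The comparison asks how transcript levels of these enzymes differ after exposure to that inhibitor, in the cytosol and in mitochondria. With 1 library per group there are no replicates, no test of the treatment is possible, and the treatment and whatever else differed between the 2 cultures or libraries cannot be told apart.

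The total of estimated counts was 67095283 for vehicle and 59139157 for iMQT_020. TPM is a level scaled by transcript length and library size. The segment with CDKN2A, MTAP and CDKN2B is deleted in MIA PaCa-2, yet CDKN2A was at 278 TPM with vehicle and 208 TPM with iMQT_020. In the same order MTAP was at 33.7 and 26.2 TPM, and CDKN2B at 8.04 and 13.5 TPM. Of the genes listed as abundant in that line, CD44 was below 0.1 TPM in both and ANXA1 was at 3.13 and 2.74 TPM. VIM, from the same list, was at 403 and 438 TPM and so goes with the label. The markers are thus mixed, and the values below belong to cells so labelled whose identity is uncertain. The keratins KRT8 and KRT18 were between 77.5 and 128 TPM, while the epithelial genes EPCAM and CDH1 had at most 7 counts. The 7 markers of fibroblasts, leukocytes and endothelial cells summed to 1.33 TPM (vehicle) and 1.80 TPM (iMQT_020), with DCN, COL1A2 and PTPRC at 0 counts in both. With vehicle and then iMQT_020, CD68 had 51 and 64 counts, LUM 23 and 9, VWF 14 and 16, and PECAM1 0 and 29. In a bulk library, fewer cells carrying a transcript and less transcript per cell cannot be told apart.

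Serine synthesis runs through 3 cytosolic steps: PHGDH oxidises 3-phosphoglycerate, PSAT1 transfers an amino group from glutamate, and PSPH removes the phosphate. SHMT1 in the cytosol and SHMT2 in mitochondria then move a carbon from serine to tetrahydrofolate, leaving glycine. MTHFD1 carries that carbon between folate forms in the cytosol, while MTHFD2, MTHFD2L and MTHFD1L share the same reactions in mitochondria and release formate. ALDH1L2 instead oxidises the mitochondrial formyl-folate to carbon dioxide and yields NADPH. In proliferating cells the pathway supplies purines, thymidylate and methyl groups, and several of its genes are known targets of the transcription factors ATF4 and MYC.

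Sequence upstream of the start site is shown for PSAT1, PHGDH and MTHFD2, which had 3 of the 4 lowest ratios between the libraries, and for MTHFD1, the most abundant of the 10. Each run is the 250 bases before the RefSeq start on the plus strand of GRCh38.p14. Capitals mark CCAAT, a box found near many start sites, and the E-box CACGTG, which MYC and its partners can bind.
PSAT1, chr9:78296875-78297124: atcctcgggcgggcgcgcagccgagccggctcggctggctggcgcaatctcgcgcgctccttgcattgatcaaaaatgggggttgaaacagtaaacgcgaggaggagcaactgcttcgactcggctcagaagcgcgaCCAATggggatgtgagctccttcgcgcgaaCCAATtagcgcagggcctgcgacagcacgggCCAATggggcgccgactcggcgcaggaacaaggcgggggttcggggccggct
PHGDH, chr1:119711684-119711933: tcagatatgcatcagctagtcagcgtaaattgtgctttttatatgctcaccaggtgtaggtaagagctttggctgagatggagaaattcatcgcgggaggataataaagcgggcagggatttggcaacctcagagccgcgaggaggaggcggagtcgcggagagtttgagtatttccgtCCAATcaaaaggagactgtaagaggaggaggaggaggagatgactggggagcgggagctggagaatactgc
MTHFD2, chr2:74198365-74198614: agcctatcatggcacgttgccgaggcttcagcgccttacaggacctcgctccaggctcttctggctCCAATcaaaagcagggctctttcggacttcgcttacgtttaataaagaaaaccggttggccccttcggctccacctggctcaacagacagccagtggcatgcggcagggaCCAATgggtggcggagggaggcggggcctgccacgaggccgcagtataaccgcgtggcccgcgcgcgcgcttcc
MTHFD1, chr14:64388103-64388352: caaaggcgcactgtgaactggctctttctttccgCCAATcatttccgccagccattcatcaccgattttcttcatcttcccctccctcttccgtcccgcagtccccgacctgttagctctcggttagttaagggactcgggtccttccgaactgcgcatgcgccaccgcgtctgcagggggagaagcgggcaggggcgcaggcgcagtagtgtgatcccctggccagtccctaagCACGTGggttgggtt

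PSAT1 carried 3 CCAAT boxes, starting 113, 83 and 52 bases before the start site, all in the direction of the gene. MTHFD2 had CCAAT 184 and 74 bases before its start, and PHGDH had 1 match at 71 bases. MTHFD1 had CCAAT at 216 bases and CACGTG at 15 bases before its start. RefSeq windows of 250 bases before to 50 after the start were at hand for 7 of the 10 genes, which left SHMT2, PSPH and ALDH1L2 without one. A gene can have several windows, 1 for each alternative start, and was counted once if any of them held the motif. CCAAT was chosen after these windows had been read, so its share is not independent of them. On either strand it was present in 6 of those 7 genes, against 39.7% of 27305 genes (34.6% of their 35116 windows), measured here or not. No match in these genes overlapped another motif. MTHFD2L was the gene without a match. CACGTG, which reads the same on both strands, was found in MTHFD1 and MTHFD1L, against 8.77% of all genes and 7.26% of windows.

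The composite element TGATGNAA, a form of the site that ATF4 binds, was searched on both strands and found in MTHFD1L alone of the 7 genes, against 4.46% of all genes and 3.62% of windows. It is shown because ATF4 itself differed between the libraries, with the matching bases in capitals.
MTHFD1L, chr6:150866346-150866375: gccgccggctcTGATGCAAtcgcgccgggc
The site lies on the plus strand in intron 1 of the canonical GENCODE transcript of MTHFD1L, and inside an exon of 1 other of its 12 annotated transcripts. It came with CACGTG in 3 overlapping windows of alternative starts. These matches describe letters in a short window and say nothing of binding. The search for CCAAT was added after the windows had been read.

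All 10 enzymes had lower scaled counts in the iMQT_020 library, by between 2.74% for MTHFD2L, whose sign turned with deposited TPM, and 44.8% for SHMT2. A log2 ratio below 0 was common, at 52.7% of the 14805 measured genes, those with at least 50 counts in a library. None of the 10 was at least 2-fold lower (3.09% of measured genes were) and none was at least 2-fold higher (2.15% were). At least 1.5-fold lower were SHMT2 and PSAT1, 2 of the 10, against 10.2% of measured genes and 5.42% of the 9312 genes with at least 1000 counts. MTHFD2 and PHGDH lay just short of that line. With upper quartile scaling 4 of the 10 passed it, but that scaling lowers every ratio (median of measured genes −0.05). The share of all genes past the line under that scaling is not given here. The median log2 ratio of the 10, iMQT_020 over vehicle, was −0.37, with a range from −0.86 to −0.04, while the median over all measured genes was −0.02.

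**Figure D1:**
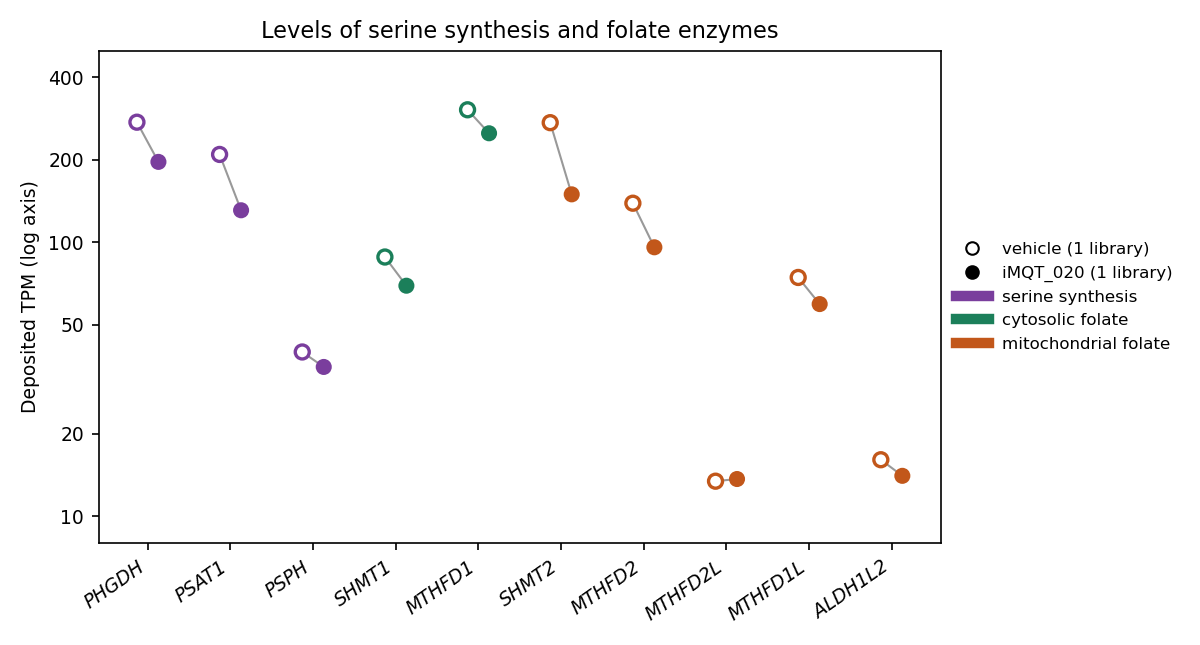
Deposited TPM of each enzyme (log axis) in the vehicle library (open circles) and the iMQT_020 library (filled circles), 1 library each, coloured by role. Of the 10 enzymes, 9 are lower in the iMQT_020 library, MTHFD2L is level, and the order from MTHFD1 at the top to MTHFD2L at the bottom is the same in both.

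The abundance order of the 10, taken from TPM and so per transcript length, was the same in both libraries. MTHFD1 came first, followed by PHGDH, SHMT2, PSAT1, MTHFD2, SHMT1, MTHFD1L, PSPH, ALDH1L2 and MTHFD2L. In the vehicle library PHGDH and SHMT2 were close together, at 274 and 273 TPM, and in the iMQT_020 library they stood at 197 and 150 TPM. ALDH1L2 and MTHFD2L, the least abundant pair, were at 16.1 and 13.4 TPM in the vehicle library and at 14.1 and 13.7 TPM in the iMQT_020 library. With 1 library per group, whether such neighbours differ beyond the spread between cultures could not be assessed. Summed over the 10, the level was 1432 TPM with vehicle and 1015 TPM with iMQT_020, 29.2% lower.

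Serine synthesis enzymes differed in the size of the difference between libraries, with the first 2 steps further from no difference than the last. PHGDH, on chromosome 1 (119711934 to 119744215, GRCh38), commits carbon to the pathway and had 15713 counts with vehicle and 9415 with iMQT_020. Its level was 274 TPM and then 197 TPM. The log2 ratio of scaled counts was −0.56 (95% counting interval −0.60 to −0.53). Centred on genes of like GC content and transcript length, the ratio of PHGDH was −0.36, and its transcript has the highest GC content of the 10, at 58.1%.

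PSAT1, the glutamate-dependent transaminase, lies on chromosome 9 (78297125 to 78330093). It had 13725 counts with vehicle and 7351 with iMQT_020, or 209 and 131 TPM. Its log2 ratio of −0.72 (−0.77 to −0.68) was the second lowest of the 10, and −0.75 after centring. Of the genes with at least 1000 counts, 2.92% had a lower ratio than PSAT1.

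PSPH, the phosphatase that completes serine, lies on chromosome 7 (56011064 to 56051444). It had 3057 and 2379 counts, at 39.8 TPM with vehicle and 35.1 TPM with iMQT_020. Its log2 ratio was −0.19 (−0.26 to −0.11), and 27.7% of genes with at least 1000 counts lay lower. The level of PSAT1 relative to PSPH was therefore 5.26 by TPM with vehicle and 3.73 with iMQT_020. From counts, that ratio differed by −0.54 on the log2 scale (−0.63 to −0.45). PSAT1 relative to PHGDH differed by −0.16 (−0.22 to −0.11), and by −0.39 after centring.

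**Figure D2:**
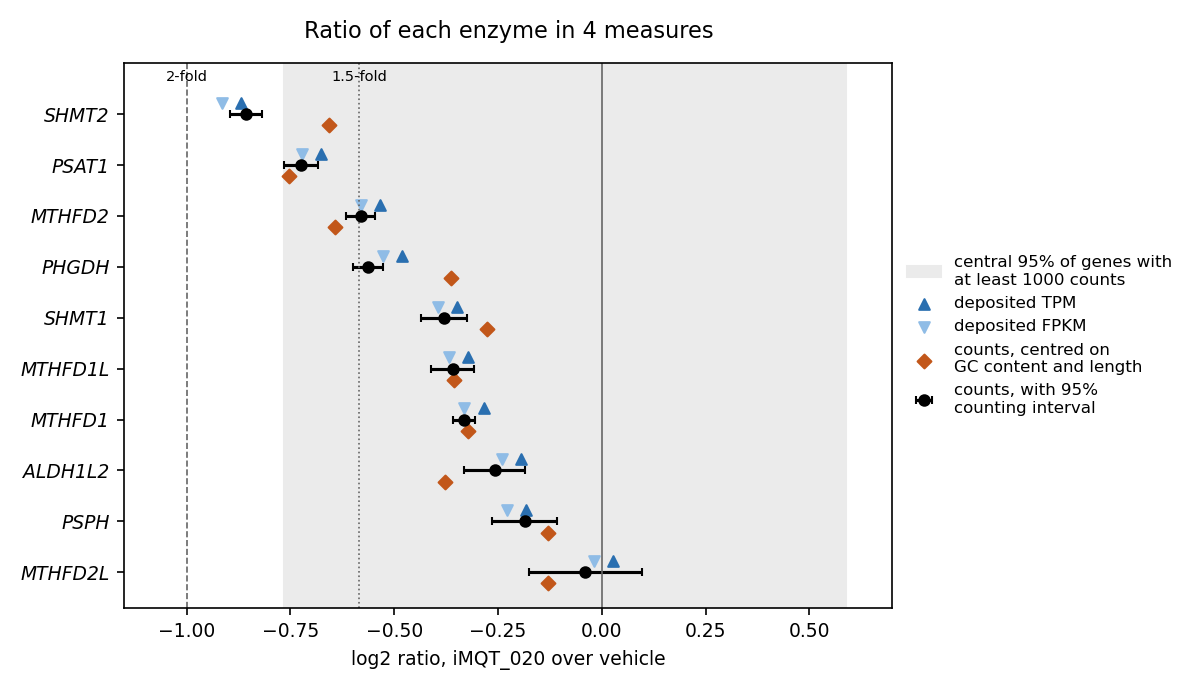
The log2 ratio of each enzyme, iMQT_020 over vehicle, from scaled counts (black, with 95% intervals for counting error only), from deposited TPM and FPKM with nothing added (triangles) and from counts centred on GC content and transcript length (diamonds). SHMT2 lies lowest by counts at −0.86, PSAT1 lowest after centring at −0.75, and MTHFD2L crosses 0 with TPM; the band is the central 95% of genes with at least 1000 counts, −0.76 to 0.59.

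The serine hydroxymethyltransferases were both lower in the iMQT_020 library, the mitochondrial enzyme by more. SHMT2, on chromosome 12 (57229711 to 57234935), had 16773 counts with vehicle and 8198 with iMQT_020. Its level was 273 TPM and then 150 TPM. Its log2 ratio of −0.86 (−0.89 to −0.82) equals a level 1.81-fold lower, and 1.76% of genes with at least 1000 counts had a lower one. After centring it was −0.66, and its transcript has a GC content of 56.1%.

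SHMT1, the cytosolic enzyme, lies on chromosome 17 (18327873 to 18363550). It had 6539 and 4445 counts, at 88.4 TPM with vehicle and 69.4 TPM with iMQT_020. The log2 ratio was −0.38 (−0.44 to −0.33). SHMT1 overlaps SMCR8 over 184 bases, and SMCR8 was higher in the iMQT_020 library, with 2985 and 4013 counts. Whether reads were assigned by strand is not given in the sources used here, and the part of that overlap in the ratio of SHMT1 was not tested.

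Within each library SHMT2 was the more abundant of the pair, at 3.09 times SHMT1 by TPM with vehicle and 2.15 times with iMQT_020. The change in that ratio from counts was −0.48 on the log2 scale (−0.54 to −0.41), and −0.38 after centring. The canonical transcripts of the pair share no identical run longer than 18 bases.

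MTHFD1, the cytosolic enzyme with 3 activities, was the most abundant of the 10 and lies on chromosome 14 (64388353 to 64460025). It had 28579 counts with vehicle and 20102 with iMQT_020, or 304 and 250 TPM. The log2 ratio was −0.33 (−0.36 to −0.31). Its mitochondrial relative MTHFD1L, which makes formate, lies on chromosome 6 (150865702 to 151101887) and had 7319 and 5051 counts. It was at 74.4 TPM with vehicle and 59.5 TPM with iMQT_020, with a log2 ratio of −0.36 (−0.41 to −0.31). MTHFD1L stood at 0.244 times MTHFD1 by TPM with vehicle and at 0.238 times with iMQT_020. From counts that ratio differed by −0.03 on the log2 scale, with a counting interval from −0.09 to 0.03 that includes no difference.

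MTHFD2 and MTHFD2L are both mitochondrial dehydrogenase-cyclohydrolases, and their levels and ratios were far apart. MTHFD2, the form known for high expression in embryos and tumours, lies on chromosome 2 (74198615 to 74217565). It had 17635 counts with vehicle and 10433 with iMQT_020, or 139 and 95.9 TPM. Its log2 ratio was −0.58 (−0.62 to −0.55), and −0.64 after centring.

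MTHFD2L, the form also found in adult tissues, lies on chromosome 4 (74114560 to 74303099). It had 955 and 822 counts, at 13.4 TPM with vehicle and 13.7 TPM with iMQT_020. Its log2 ratio of −0.04 (−0.18 to 0.10) was indistinguishable from no difference within counting error, and with deposited TPM its sign turned, at 0.03. MTHFD2 was 10.3 times MTHFD2L by TPM with vehicle and 7.01 times with iMQT_020, a log2 difference from counts of −0.54 (−0.68 to −0.40).

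**Figure D3:**
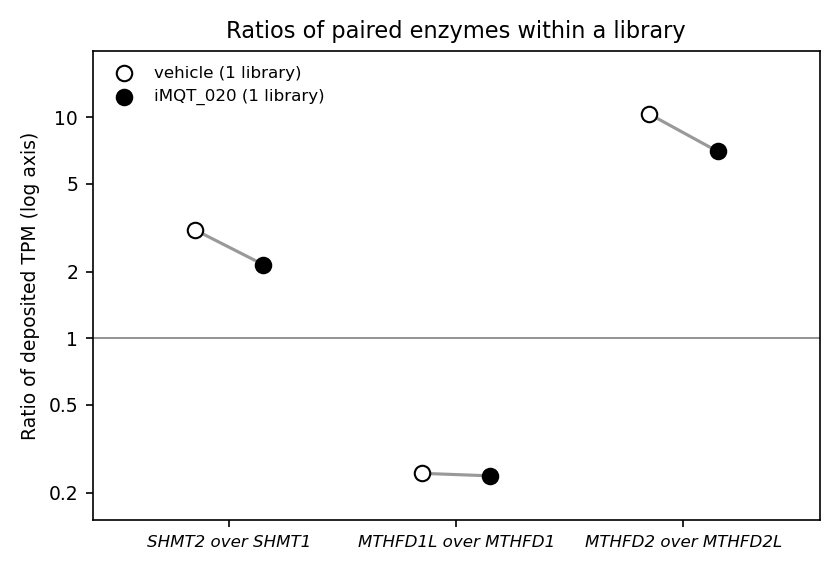
Ratio of deposited TPM (log axis) between paired enzymes within the vehicle library (open) and the iMQT_020 library (filled), 1 library each. SHMT2 over SHMT1 goes from 3.09 to 2.15 and MTHFD2 over MTHFD2L from 10.3 to 7.01, while MTHFD1L over MTHFD1 stays near 0.24 in both.

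ALDH1L2, the mitochondrial formyl-folate dehydrogenase, lies on chromosome 12 (105019790 to 105084458). It had 3522 counts with vehicle and 2607 with iMQT_020, or 16.1 and 14.1 TPM, with a log2 ratio of −0.26 (−0.33 to −0.18). Its cytosolic counterpart ALDH1L1 had 0 counts in both libraries. A count of 0 allows up to 3 counts, or 0.0448 CPM (counts scaled to library size) in the vehicle library and 0.0506 CPM in the iMQT_020 library, for counting error only. No cytosolic to mitochondrial ratio could therefore be formed for this step.

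Grouped by compartment, the medians were alike with all members kept. The 5 cytosolic enzymes had a median log2 ratio of −0.38 (range −0.72 to −0.19) and the 5 mitochondrial enzymes one of −0.36 (range −0.86 to −0.04). Without the serine synthesis enzymes, SHMT1 and MTHFD1 alone had a median of −0.36. Without MTHFD2L, the least abundant member, the mitochondrial median was lower, at −0.47, so the likeness of the medians depended on keeping that gene. The ranges overlapped over most of their length. After centring the order of the medians turned, with −0.32 for the 5 cytosolic and −0.38 for the 5 mitochondrial enzymes. Summed TPM weights the abundant members, and on that scale the 5 mitochondrial enzymes went from 516 TPM to 333 TPM, 35.5% lower in the iMQT_020 library. The 5 cytosolic enzymes went from 916 TPM to 682 TPM, 25.6% lower. Of these, SHMT1 and MTHFD1 together went from 393 TPM to 319 TPM, 18.7% lower. The 3 serine synthesis enzymes went from 523 TPM to 362 TPM, 30.7% lower. SHMT2 carried the larger part of the mitochondrial sum in the vehicle library.

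**Figure D4:**
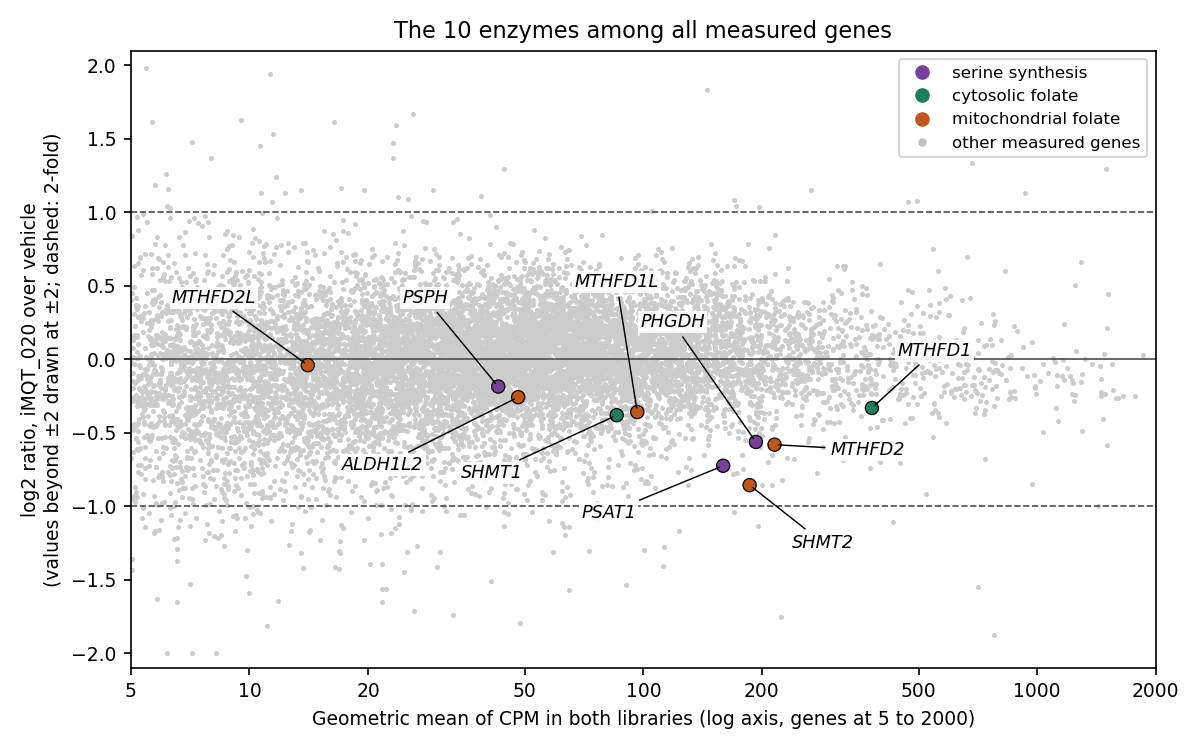
The log2 ratio, iMQT_020 over vehicle, against the geometric mean of scaled CPM in both libraries (log axis), for measured genes between 5 and 2000 (grey) and the 10 enzymes (coloured by role). SHMT2 at −0.86 and PSAT1 at −0.72 lie toward the lower edge of the cloud for genes of their abundance, and MTHFD2L at −0.04 lies in its middle.

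Few counts were assigned to pseudogene copies of the enzymes. The table holds 12 rows for pseudogenes named after PSAT1, PSPH, SHMT1, MTHFD1 or MTHFD2, with 5 counts in all with vehicle and 8 with iMQT_020. How reads that match both a copy and its parent gene were assigned is not given in the sources used here. Of the neighbours that overlap an enzyme, ZBTB25 (at MTHFD1) had 1141 and 1081 counts, and SLC4A5 (at MTHFD2) had 179 and 237. GC content of the canonical transcripts ran from 36.9% for MTHFD2L to 58.1% for PHGDH, around a median of 48.4% that is close to the 48.5% of all measured genes. With GC content and transcript length centred, all 10 ratios were still below 0 and their median was −0.36.

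The neighbouring pathway was read from 38 further genes in 5 lists, of which 32 were measured. None of the 32 was at least 2-fold lower or higher. By counts, at least 1.5-fold lower were 4 of the 32 and at least 1.5-fold higher were 0, against 10.2% and 6.30% of measured genes. Below 0 were 24 and above 0 were 8, with a median of −0.13, against 52.7% of measured genes below 0 and a median of −0.02. With deposited TPM the numbers below and above 0 were 22 and 10, and after centring 25 and 7. The same 52.7% is the share to set beside the counts below 0 in the short lists that follow. Not measured were FOLR1, FTCD, SDS, ALDH1L1, BHMT and SLC7A10, the last 3 with 0 counts in both libraries.

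Folate uptake and storage genes were below 0 by counts in 5 of 5 measured cases, with a median of −0.19. SLC25A32 turned above 0 with deposited TPM, TMM over measured genes and median of ratios, and FPGS, named after its values were seen, went from −0.29 to 0.05 after centring. The lowest was SLC19A1, the reduced folate carrier, with 4684 and 3030 counts and a log2 ratio of −0.45 (−0.52 to −0.39). The highest was SLC25A32, which brings folate into mitochondria, with 3715 and 3256 counts and a ratio of −0.01 (−0.08 to 0.05).

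Among 8 measured genes that reduce or use folate, 6 were below 0 and 2 above, with a median of −0.08. TYMS, thymidylate synthase, uses the carbon that SHMT enzymes supply and had 11944 counts with vehicle and 6743 with iMQT_020, a log2 ratio of −0.65 (−0.69 to −0.60). GART and ATIC, the purine enzymes that take up formyl-folate, were chosen after their values were seen and lay nearer 0, at −0.16 and −0.08.

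The glycine cleavage system, which feeds folate with carbon from glycine, had 3 of 4 members below 0 and a median of −0.26. AMT, its aminomethyltransferase, was lowest at −0.78 (−1.23 to −0.34) on only 130 and 67 counts. DLD, a dehydrogenase shared with other complexes, was at 0.00 (−0.03 to 0.04) and at −0.10 after centring.

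Of 7 measured genes of the methionine cycle and transsulfuration, 5 were below 0, with a median of −0.11. CBS, which joins serine to homocysteine, had 9725 counts with vehicle and 4697 with iMQT_020, at 107 and 60.2 TPM. Its ratio of −0.87 (−0.92 to −0.82) was close to that of SHMT2, and it was the lowest of the 32. MTRR, which reactivates methionine synthase, was highest at 0.14 (0.05 to 0.22).

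Serine transport and other uses of serine had 5 of 8 members below 0 and a median of −0.17. SFXN3, a relative of the mitochondrial serine carrier, was lowest by counts at −0.76 (−0.93 to −0.59), on 808 and 423 counts. SFXN2, named after its values were seen, differed between measures, at −0.29 by counts, −0.69 by deposited TPM and −0.73 by FPKM. In the deposited units it lay below SFXN3, which was at −0.66 by TPM and −0.71 by FPKM. SFXN1, the main mitochondrial serine carrier and chosen after its values were seen, was at 184 TPM and 173 TPM with a ratio of −0.13. SPTLC1, which uses serine for sphingolipids, was highest at 0.14 (0.09 to 0.18).

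**Figure D5:**
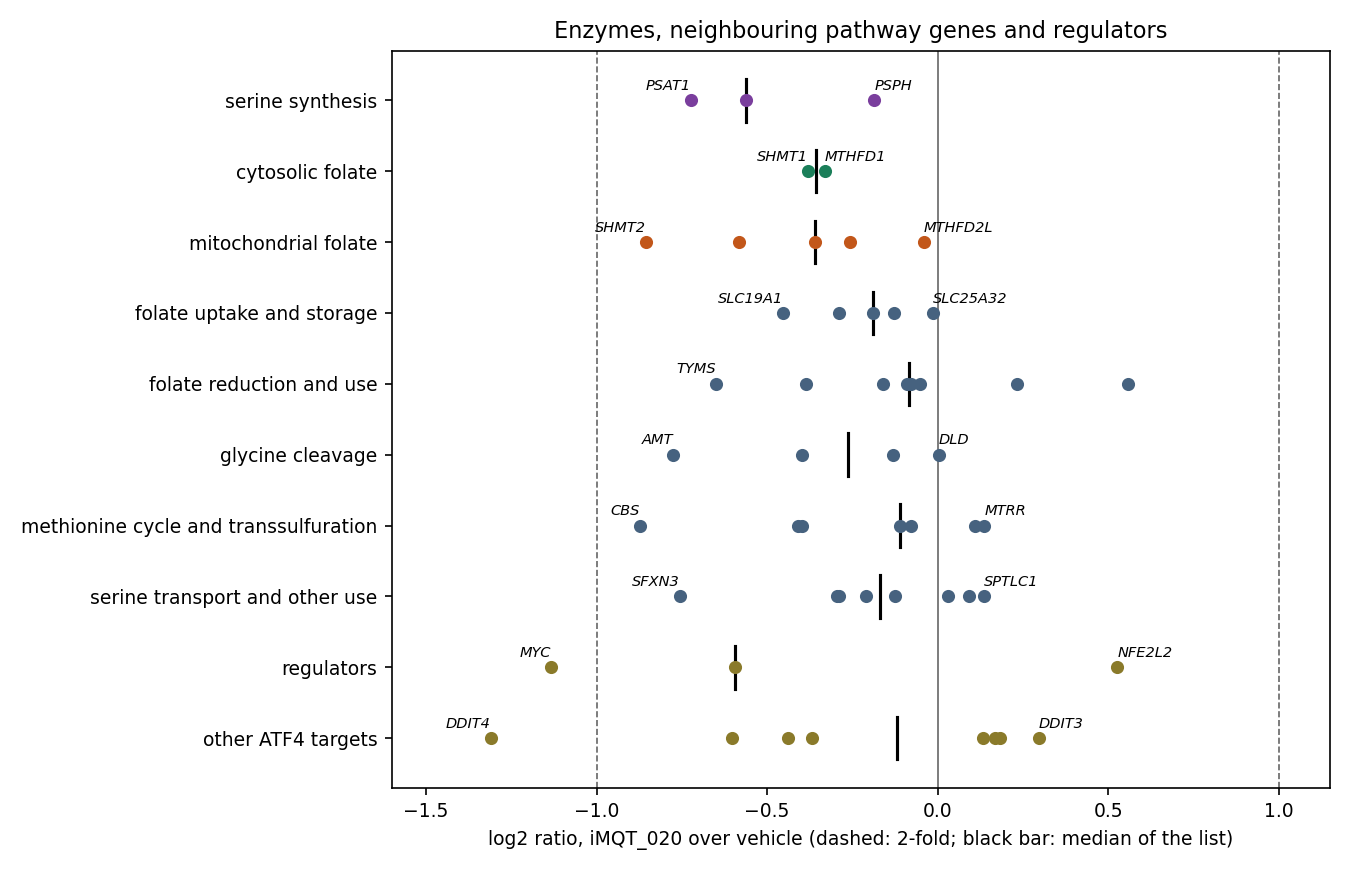
The log2 ratio, iMQT_020 over vehicle, of each measured gene (points) by list, with the median of the list as a black bar, dashed lines at 2-fold, and the lowest and highest gene named in all but 1 list, where only the lowest is. The 3 groups of enzymes lie below 0 by counts (MTHFD2L above it with TPM), while the other ATF4 targets fall on both sides, from DDIT4 at −1.31 to DDIT3 at 0.30.

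Transcripts of known regulators of these enzymes differed in direction. ATF4 had 36973 counts with vehicle and 21654 with iMQT_020, a log2 ratio of −0.60 (−0.62 to −0.57). By deposited TPM it was at 554 and 441, a smaller log2 difference of −0.33, and after centring at −0.39. MYC had 19348 and 7796 counts, a ratio of −1.14 (−1.17 to −1.10), and was the one regulator of the 3 past the 2-fold line. NFE2L2, the NRF2 factor that is known to act on serine synthesis through ATF4, was higher in the iMQT_020 library at 0.53 (0.48 to 0.58).

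The 8 other ATF4 targets, from outside serine and folate metabolism, were split evenly, 4 below 0 and 4 above, with a median of −0.12. DDIT4, an inhibitor of mTORC1, was lowest at −1.31 (−1.38 to −1.24) and the only one past 2-fold. DDIT3, the CHOP factor, was highest at 0.30 (0.06 to 0.54) on 276 and 300 counts. ASNS, asparagine synthetase, was chosen after its values were seen and had 5220 and 5193 counts, a ratio of 0.17 (0.11 to 0.22), in contrast to the −0.72 of PSAT1. No p-value stands behind this contrast, which describes 2 libraries.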

How the data were processed

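RNA sequencing of 2 libraries was used, 1 from vehicle-treated and 1 from iMQT_020-treated cells. Alignment to GRCh38 used the HISAT2 program with Bowtie2, per the labels' protocols. Both edgeR and StringTie appear, with no version and no stated role, per the submitters' processing notes. For each gene the authors deposited an estimated count in whole numbers, FPKM scaled by transcript length and depth, and TPM scaled to the same total in each library. The step that counted reads is not given in the sources used here. A shorter deposited table repeats the FPKM.

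Counts were scaled by TMM over all genes (edgeR 4.0.16, R 4.3.3). The log2 ratio used a prior count of 0.5 and was read for genes reaching 50 counts in either library. Intervals of a ratio (exact Clopper-Pearson, 95%) and exact conditional 95% intervals for a ratio of 2 genes, cover counting error only, treat rounded estimates as whole reads and can be too narrow. No p-value was computed. GC content and length came from canonical GENCODE 44 transcripts (93.6% of measured genes) and were centred in 10 by 10 bins. Gene positions and upstream sequences came from RefSeq on GRCh38.p14. The calculation was tested on simulated counts that hold counting error (Poisson) only. That cannot show how the ratios or intervals behave with a spread between cultures. Alternatives used DESeq2 1.42.0 size factors, other scalings, minimums, prior counts and deposited units.

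The members and lists were chosen with earlier results of these data known. The rule for names took all 10 members, the lowest and highest measured gene of each pathway list and of the other ATF4 targets, any gene of a pathway list at least 2-fold apart, and every regulator; 1 gene that the rule names is not reported here. A planned comparison of protein sequences was not made. Software was numpy 2.4.6, scipy 1.17.1 and pandas 2.3.3 under Python 3.11.15.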

Additional observations from a re-analysis of the deposited data

How the results depend on the processing

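Of 140 ratios of single enzymes under alternative settings, 139 were below 0. The exception was MTHFD2L with deposited TPM on log2(TPM + 1), at 0.02. Many of these signs could not have turned, so the count is no measure of robustness. The alternative minimums leave a single ratio as it was, and each rescaling moves all ratios by a like small amount. The ranges were −0.90 to −0.66 for SHMT2, −0.75 to −0.67 for PSAT1, −0.64 to −0.53 for MTHFD2 and −0.59 to −0.36 for PHGDH. No setting that kept the 2-fold rule made any of the 10 enzymes 2-fold apart. A 1.5-fold rule on counts gave 2 enzymes and 4 pathway genes lower. With that rule, upper quartile scaling gave 4 enzymes, as it shifts every ratio downward, and centring gave 3. The shares of all genes past that rule under these settings are not given here. With no minimum, 1 pathway gene was 2-fold lower, SDS, with 6 counts (vehicle) and 0 (iMQT_020). SHMT2 over SHMT1 differed by −0.38 after centring. Scaling by TMM over measured genes, the 1.5-fold count and the numbers of pathway genes below 0 under other settings, and the alternatives for ratios of paired enzymes and for the regulators were chosen after seeing the data. No paired analysis was possible because each group has 1 library, so none could be left out either. Few counts leave wide intervals for single genes, among them AMT with 130 and 67 counts.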
